A study of Mus musculus with 4 samples.

Results

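The 10 genes described here are negative feedback regulators and unusual members of the NF-kB system: Nfkbia, Nfkbib, Nfkbie, Nfkbiz, Bcl3, Tnfaip3, Zc3h12a, Birc3, Relb and Nfkb2. They were taken by symbol from tables of 20611 genes, and all 10 were found and passed the filter on low counts that left 15068 genes for testing. Skin was taken from the backs of BALB/c males aged 8 to 9 weeks, and every mouse had received 5% imiquimod cream at 47 mg per day on days 1 to 5, with necropsy on day 6. Imiquimod activates Toll-like receptor 7 and causes a dermatitis that resembles psoriasis. One library came from skin with imiquimod alone (IMQ, n = 1). Another 2 came from skin that also received a lotion without the test compound about an hour after the cream (IMQ+VEH, n = 2). The last 1 came from skin that received the lotion with the test compound, isosorbide di-(methyl fumarate) (IMQ+IDMF, n = 1). The study was set up to measure what IDMF does to gene expression in this inflamed skin. Untreated skin was not analysed here, so nothing says how imiquimod itself moved these genes.

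NF-kB is a family of dimeric transcription factors that inhibitor (IkB) proteins hold in the cytoplasm until a kinase complex marks the inhibitor for destruction. Many of the genes that NF-kB then switches on encode its own brakes, so that their transcripts are widely read as a sign of pathway activity. In keratinocytes, the cells of the epidermis, the nuclear protein encoded by Nfkbiz acts as a cofactor that IL-17 and IL-36 need to induce antimicrobial peptides and chemokines, which is why it is followed in psoriasis-like skin. In short, Nfkbiz had almost the same transcript level in all 4 libraries. No feedback gene passed the test between IMQ+IDMF and IMQ+VEH, where 0 of all 15068 tested genes passed it, or between IMQ+VEH and IMQ. Of 13 tested genes known to depend on Nfkbiz, 8 were lower and 5 higher in both IMQ+VEH libraries than in the IMQ library. Of the lower ones 4 passed the test (2 with total counts as library sizes), where 0.664% of all genes passed it in either direction. That list was chosen with earlier results of these data known, so its count beside this share is not a test of the list.

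Total counts were 21167149 to 26639628 per library, and 16016 to 16648 genes had counts. Raw counts of genes given below are not scaled to these depths, so their order over the libraries can differ from that of scaled values. A floor of 3 counts equalled 0.107 to 0.146 CPM (counts scaled to library size, with TMM factors), and such floors and the Poisson intervals below cover counting error only. The labelled tissue was checked with 10 keratinocyte markers, which were all detected in every library and summed to 48409 to 64653 CPM. By the labels each library is a biological replicate of its own. Spread was measured only within the IMQ+VEH pair and taken to hold for the single libraries too, and a difference between treatments and a difference between single mice cannot be told apart. In bulk skin, fewer cells of a type and less RNA per cell cannot be told apart either.

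The proximal promoters are shown because the feedback loop runs through NF-kB sites next to the start of several of these genes. RefSeq windows of 300 bases on GRCm38.p6 (250 before to 50 after a start site) matched 8 of the 10 genes, all but Nfkbiz and Relb, in 11 windows. The consensus kB motif of 10 letters was searched on both strands and found in 7 of the 11 windows, which belong to 5 genes (Nfkbia, Nfkbie, Bcl3, Tnfaip3 and Nfkb2). It was found in 8.46% of all 32851 windows in the table. The narrower spelling GGGNNNTTCC, which overlaps the consensus, was in windows of 4 of the 8 genes and in 5.56% of all windows. No match was found in these windows of Nfkbib, Zc3h12a and Birc3, and a match is a string of letters, not measured binding. The 250 bases before the start sites of Nfkbia and Nfkbie, and up to 30 bases around matches before 2 start sites of Nfkb2 and 1 of Tnfaip3, read 5′ to 3′ on the gene's strand with the consensus matches in capitals:
Nfkbia, chr12:55492648-55492897, minus strand: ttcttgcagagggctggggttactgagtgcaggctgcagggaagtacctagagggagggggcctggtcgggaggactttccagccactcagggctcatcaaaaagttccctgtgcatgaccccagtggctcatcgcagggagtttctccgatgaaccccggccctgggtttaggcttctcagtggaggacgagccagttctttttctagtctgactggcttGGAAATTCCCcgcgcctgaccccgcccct
Nfkbie, chr17:45555450-45555699, plus strand: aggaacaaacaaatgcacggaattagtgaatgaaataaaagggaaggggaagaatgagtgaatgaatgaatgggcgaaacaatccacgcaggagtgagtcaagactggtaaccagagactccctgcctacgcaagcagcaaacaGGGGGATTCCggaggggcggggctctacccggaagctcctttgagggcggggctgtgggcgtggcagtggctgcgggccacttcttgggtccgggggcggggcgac
Tnfaip3, chr10:19015516-19015545, minus strand: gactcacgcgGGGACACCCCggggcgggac
Tnfaip3, chr10:19015411-19015432, minus strand: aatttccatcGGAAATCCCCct
Nfkb2, chr19:46304688-46304717, plus strand: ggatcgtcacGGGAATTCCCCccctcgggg
Nfkb2, chr19:46304716-46304736, plus strand: ggggccgaaaGGGGCTTTCCc
Nfkb2, chr19:46305695-46305724, plus strand: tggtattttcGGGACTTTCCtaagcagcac
The Nfkbia match began 29 bases before the start site and the Nfkbie match 106 bases before it. Tnfaip3 had matches that began 125 and 12 bases before its start site. Nfkb2 had matches at 39 and 11 bases before one start site and at 225 bases before another. The latter site also lies just after a start site between them, which had a further match 236 bases before it that is not printed.

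Among the canonical inhibitors, Nfkbia, which encodes IkB-alpha and is the classical rapid feedback target, lies on chr12:55489410-55492647 (GRCm38, minus strand). It had 140.8 CPM in IMQ, 110.5 and 114.7 in the IMQ+VEH libraries and 124.6 in IMQ+IDMF. Both IMQ+VEH libraries lay below IMQ, and IMQ+IDMF lay between, above both IMQ+VEH libraries. The fitted log2 fold change was -0.32 (SE 0.27) for IMQ+VEH against IMQ (edgeR quasi-likelihood test, adjusted p = 0.892) and 0.15 (SE 0.27) for IMQ+IDMF against IMQ+VEH (adjusted p = 1).

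Nfkbib (chr7:28758251-28767512), which encodes IkB-beta, an inhibitor that is turned over more slowly, had 31.5 CPM in IMQ, 27.4 and 39.7 in IMQ+VEH and 38.8 in IMQ+IDMF. The IMQ+VEH pair lay on either side of IMQ, so the spread within the pair, 0.53 in log2 CPM, was larger than either fitted change (0.09 with SE 0.31 for IMQ+VEH against IMQ, 0.21 with SE 0.31 for IMQ+IDMF against IMQ+VEH). Exons of Nfkbib overlap those of Ccer2 and Sirt2 on the opposite strand over 356 bases, and as the strand setting of the counting is not known, reads there could belong to either gene.

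Nfkbie (chr17:45555703-45563169), which encodes IkB-epsilon, had the fewest counts of the 10, with 127 counts in IMQ, 247 and 101 in IMQ+VEH and 112 in IMQ+IDMF. In CPM these were 5.00, 8.80, 4.93 and 5.01, so IMQ+VEH replicate 1 stood apart and the other 3 libraries were alike. Its fitted changes were 0.46 (SE 0.52) for IMQ+VEH against IMQ and -0.46 (SE 0.52) for IMQ+IDMF against IMQ+VEH. Without IMQ+VEH replicate 1 these values became -0.02 and 0.02, so that library alone gave both.

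Of the nuclear, atypical inhibitors, Nfkbiz (chr16:55811375-55838899) was the most even gene of the 10. It had 2557 counts in IMQ, 2726 and 1982 in IMQ+VEH and 2256 in IMQ+IDMF, which at the libraries' depths were 100.7, 97.2, 96.7 and 100.9 CPM. The 95% Poisson intervals of these values ran from 96.9 to 104.7, 93.5 to 100.9, 92.4 to 101.0 and 96.7 to 105.1 CPM and overlapped one another. The highest and the lowest library were 0.06 apart in log2 CPM, and 99.7% of the 10337 genes with a mean log2 CPM of at least 3 had a wider range. With total counts in place of TMM the range was 0.13, and 96% of genes had a wider one. The fitted change was -0.06 (SE 0.26) for IMQ+VEH against IMQ, a sign that turned with total counts (0.01) and with the deposited FPKM values (0.05). For IMQ+IDMF against IMQ+VEH it was 0.06 (SE 0.26). The 95% intervals of the fold, 0.648 to 1.43 and 0.701 to 1.55, leave room for changes of that size in the animals, since they use the spread seen over all genes and not the closeness of these 4 values.

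The 5 genes whose pattern over the 4 libraries was nearest to that of Nfkbiz, by the distance between centred log2 CPM values, were Pagr1a (0.013), Fam172a (0.014), Srp54a (0.024), Ehmt2 (0.025) and Aplf (0.025). As Nfkbiz was nearly level, these are other nearly level genes, and 4 libraries are few for any such ranking.

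Bcl3 (chr7:19808462-19822770), a nuclear IkB protein that works with p50 and p52 dimers and can activate or repress, had 26.7 CPM in IMQ, 28.0 and 36.5 in IMQ+VEH and 38.5 in IMQ+IDMF. IMQ was the lowest library and IMQ+IDMF the highest, but IMQ+VEH replicate 1 lay close to IMQ and replicate 2 close to IMQ+IDMF. The fitted changes were 0.27 (SE 0.30) for IMQ+VEH against IMQ and 0.26 (SE 0.30) for IMQ+IDMF against IMQ+VEH, both smaller than the 0.38 between the IMQ+VEH libraries.

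**Figure D1:**
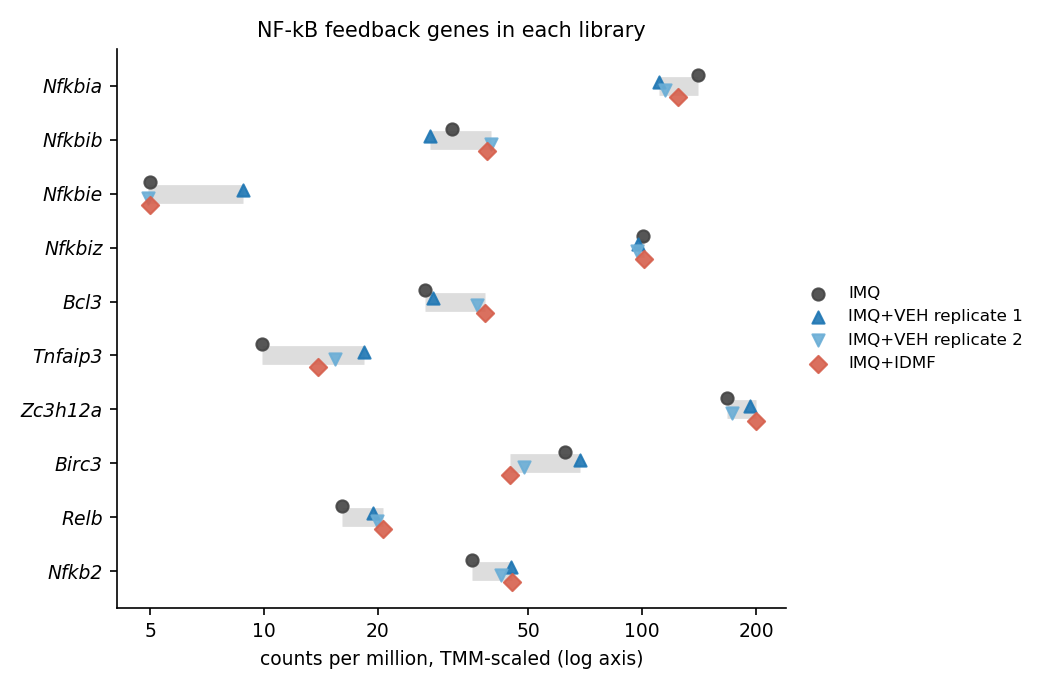
Transcript level of the 10 genes in each of the 4 libraries, in TMM-scaled CPM on a log axis. Each symbol is 1 library, offset vertically to keep it visible, and the grey bar spans the lowest to the highest library. The Nfkbiz symbols sit on each other between 96.7 and 100.9 CPM, Tnfaip3 spreads from 9.85 in IMQ to 18.4 in IMQ+VEH replicate 1, and Nfkbie has 1 library, IMQ+VEH replicate 1, apart from the rest.

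The feedback enzymes act on signalling proteins or on RNA. Tnfaip3 (chr10:19000910-19015657) encodes A20, a ubiquitin-editing enzyme that stops signalling from TNF, IL-1 and Toll-like receptors, and variants in it are linked to psoriasis. It had 9.85 CPM (250 counts) in IMQ, 18.4 (515 counts) and 15.4 (315 counts) in IMQ+VEH and 13.9 (311 counts) in IMQ+IDMF. IMQ was the lowest library, all 3 lotion-treated libraries lay above it, and IMQ+IDMF lay below both IMQ+VEH libraries. IMQ+VEH was 1.71-fold above IMQ (95% interval 0.986 to 2.97), the farthest of the 10 genes from no change, but it did not pass the test (edgeR, adjusted p = 0.587, unadjusted p = 0.055). IMQ+IDMF against IMQ+VEH gave a log2 fold change of -0.28 (SE 0.36).

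The libraries ranked for Tnfaip3 as they did for 2 sets of cell type markers. The sum over 10 fibroblast markers was 2098 CPM in IMQ, 2599 in IMQ+IDMF, 3747 in IMQ+VEH replicate 2 and 7020 in replicate 1. The sum over 11 T and NK cell markers was 37.8, 41.3, 47.9 and 58.7 CPM in the same order of libraries. This order did not hold for most single markers of that set. Only 3 of the 11 were higher in IMQ+IDMF than in IMQ (50.2% of all genes were), with a median log2 difference of -0.65. Both IMQ+VEH libraries lay above IMQ for 5 of the 11 (33.6% of all genes) and below it for 2 (35.0%). No marker of either set was at 0 in any library. The sums of the other marker lists ranked the libraries in other orders, and with 4 libraries few orders are possible. The part of these cells in the Tnfaip3 values was not tested.

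Zc3h12a (chr4:125118423-125127840) encodes Regnase-1, an RNA-cutting enzyme that degrades inflammatory transcripts, including that of Nfkbiz, and that restrains IL-17 signalling in keratinocytes. It had 167 CPM in IMQ, 192 and 173 in IMQ+VEH and 200 in IMQ+IDMF. IMQ was the lowest and IMQ+IDMF the highest library, over a range of only 0.26 in log2 CPM. Neither fitted change, 0.13 (SE 0.30) for IMQ+VEH against IMQ or 0.13 (SE 0.29) for IMQ+IDMF against IMQ+VEH, was larger than the 0.15 between the IMQ+VEH libraries.

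Birc3 (chr9:7848699-7873186) encodes cIAP2, a ubiquitin ligase that is both an NF-kB target and a regulator of the canonical and non-canonical arms. It had 62.4 CPM in IMQ, 68.6 and 48.7 in IMQ+VEH and 44.6 in IMQ+IDMF, so IMQ+IDMF was the lowest library, close to IMQ+VEH replicate 2. The log2 fold change of IMQ+IDMF against IMQ+VEH was -0.39 (SE 0.29, 95% interval -1.03 to 0.24) and lay within the 0.49 between the IMQ+VEH libraries. Without IMQ+VEH replicate 1 it was -0.13 and without replicate 2 it was -0.62. The sum over 12 macrophage and dendritic cell markers ranked the libraries in the same order, with 339 CPM in IMQ+IDMF, 492 in IMQ+VEH replicate 2, 599 in IMQ and 897 in IMQ+VEH replicate 1, none of the 12 markers was at 0, and the part of these cells in the Birc3 values was not tested. Birc2, a neighbour and close relative of Birc3 at 11.6 kb, had 41.5 CPM in IMQ, 32.4 and 35.2 in IMQ+VEH and 25.3 in IMQ+IDMF. Of all 50-base stretches of Birc3 transcripts, 7.56% also occurred in transcripts of other genes, and 65 of these 5079 stretches occurred in Birc2, so a small share of their reads could be assigned to either.

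Relb and Nfkb2 encode the subunits of the non-canonical arm, RelB and p100, which is cut to p52 and in its uncut form also acts as an inhibitor. Relb (chr7:19606217-19629438) had 16.1 CPM in IMQ, 19.4 and 19.9 in IMQ+VEH and 20.6 in IMQ+IDMF. Nfkb2 (chr19:46304320-46312385) had 35.5 CPM in IMQ, 45.1 and 42.4 in IMQ+VEH and 45.2 in IMQ+IDMF. For both genes IMQ was the lowest library and the other 3 were close together. Their profiles over the 4 libraries were the closest of any pair among the 10 genes (distance 0.09), although they lie on different chromosomes. The fitted change of IMQ+VEH against IMQ was 0.29 (SE 0.32) for Relb and 0.30 (SE 0.27) for Nfkb2, with adjusted p of 0.958 and 0.912 in edgeR. Against IMQ+VEH, IMQ+IDMF differed by 0.07 (SE 0.32) and 0.05 (SE 0.27). Exons of Nfkb2 overlap Psd and the non-coding gene AC114539.1 on the opposite strand over 830 bases.

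Taken over the 10 genes, IMQ+IDMF lay above both IMQ+VEH libraries for 6 (Nfkbia, Nfkbiz, Bcl3, Zc3h12a, Relb and Nfkb2, the last not so with DESeq2 size factors, which give 5), where 27.7% of all tested genes did, and below both for 2 (Tnfaip3 and Birc3), where 27.5% of all genes did. None of the 10 passed the test, and neither did any other gene: 0 of 15068 genes were called in this comparison (0%), with 306 at an unadjusted p under 0.05, and DESeq2 also called 0. The median log2 difference of the 10 genes was 0.06, with 0.01 over all tested genes and -0.05 between the IMQ+VEH libraries over the 10 genes. For 4 of the 10 genes the difference was larger than that between the IMQ+VEH libraries, as it was for 5083 of all 15068 genes. The narrowest 95% intervals on the log2 scale, those of Nfkbiz and Nfkbia, reached 1.55-fold and 1.66-fold upwards. Increases of up to that size were thus not excluded for these genes. The intervals of the other genes were wider on that scale, with upper limits from 1.18-fold (Birc3) to 1.86-fold (Bcl3).

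Both IMQ+VEH libraries lay above IMQ for 5 of the 10 genes (Bcl3, Tnfaip3, Zc3h12a, Relb and Nfkb2), against 33.6% of all genes, and below it for 2 (Nfkbia and Nfkbiz, or 1 with total counts), against 35.0% of all genes. None of the 10 passed the test, where 100 of 15068 genes did (0.664%, 51 higher and 49 lower in IMQ+VEH) and DESeq2 called 202. The median log2 difference of the 10 genes was 0.19, with -0.01 over all genes. This comparison shares the IMQ+VEH libraries with that of IMQ+IDMF against IMQ+VEH, so their values are not independent. Set directly against the IMQ library, 1 library against 1 and with no test, IMQ+IDMF was higher for 8 of the 10 genes. It was higher for 50.2% of all genes. Nfkbie and Nfkbiz, counted among these 8, were level, with log2 differences of 0.0012 and 0.0019. The median log2 difference of the 10 genes was 0.28. The farthest were Bcl3 (0.53), Tnfaip3 (0.49) and Birc3 (-0.48). None of the 10 reached 1.5-fold (1 did with total counts), where 25.1% of all genes did.

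**Figure D2:**
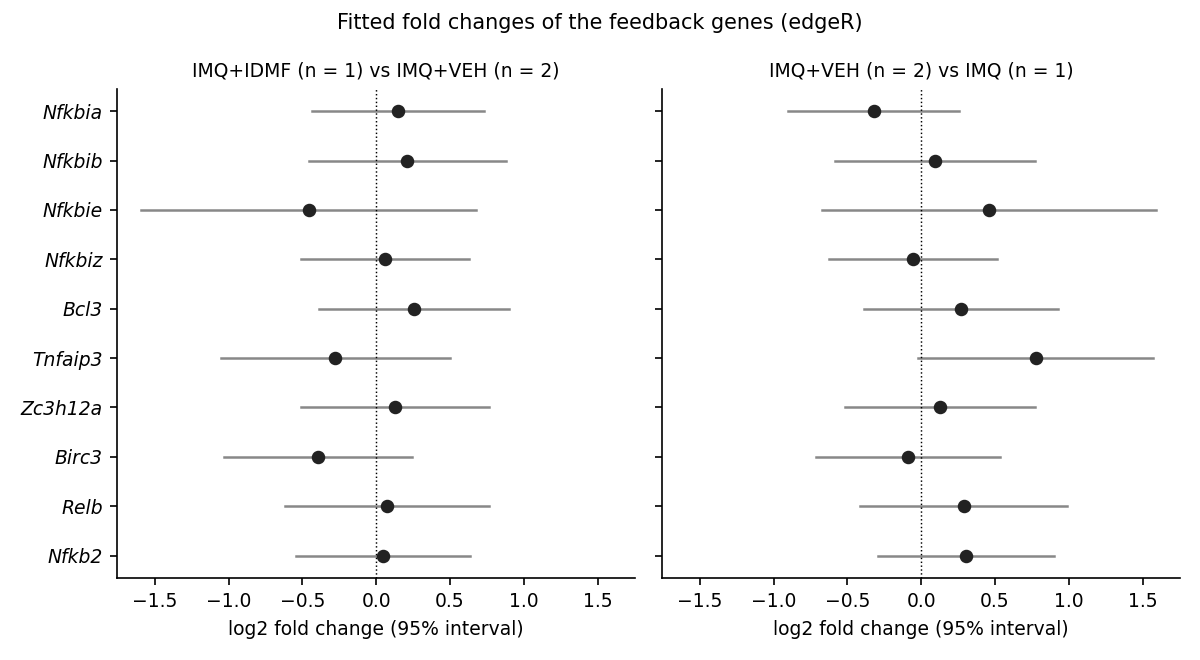
Fitted log2 fold change of each of the 10 genes (points) with its 95% interval (lines) from edgeR, for IMQ+IDMF against IMQ+VEH on the left and IMQ+VEH against IMQ on the right. All intervals cross the dotted line of no change, and that of Tnfaip3 on the right, from -0.02 to 1.57, does so by the least.

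Levels were compared between genes per transcript length, in the deposited FPKM values. Nfkbia (mean 64.6 FPKM over the 4 libraries, 59.5 to 71.0) and Zc3h12a (51.3, 44.6 to 57.3) were the highest, and their ranges did not overlap. Nfkbiz (21.1, 20.2 to 22.1), Nfkbib (20.9, 17.9 to 24.0), Birc3 (15.7, 12.4 to 20.4), Bcl3 (14.4, 11.3 to 17.1) and Nfkb2 (10.7, 8.67 to 12.2) followed, with ranges that overlapped from each gene to the next. Relb (6.94, 5.61 to 7.52) lay below them, and Tnfaip3 (2.53, 1.65 to 3.44) and Nfkbie (1.96, 1.56 to 3.05) were lowest and overlapped. This order holds among the 10 genes only. Of other brakes on the pathway, Rnf11, a subunit of the A20 complex, had a mean of 90.5 FPKM, above all 10.

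The genes upstream of the feedback loop were counted in 5 lists of 56 genes, all of which passed the filter. None was called in either comparison. IMQ+IDMF lay above both IMQ+VEH libraries for 18 of the 56 (27.7% of all genes did) and below both for 20 (27.5%), and both IMQ+VEH libraries lay above IMQ for 14 (33.6%) and below it for 22 (35.0%). Of the canonical subunits, Rela had 51.8 CPM in IMQ, 52.4 and 65.3 in IMQ+VEH and 61.9 in IMQ+IDMF, so IMQ+VEH replicate 1 lay near IMQ and replicate 2 near IMQ+IDMF. Nfkb1, the p105 and p50 gene, had 117.1, 99.5, 117.3 and 119.0 CPM in the same order, with IMQ+VEH replicate 1 below the other 3 libraries. Rel, the subunit of lymphocytes and myeloid cells, had 9.22, 10.4, 9.75 and 8.50 CPM. Its log2 fold change was -0.24 (SE 0.41) for IMQ+IDMF against IMQ+VEH.

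Among 10 kinase genes was Ikbkg, the scaffold of the IkB kinase complex. It had 56.3 CPM in IMQ, 42.0 and 43.8 in IMQ+VEH and 52.5 in IMQ+IDMF. Its catalytic partners Chuk and Ikbkb followed the same outline: both IMQ+VEH libraries were below IMQ, with log2 fold changes in that comparison of -0.39 (SE 0.26) for Ikbkg, -0.35 (SE 0.28) for Chuk and -0.31 (SE 0.26) for Ikbkb. Tab3, an adaptor subunit of the kinase TAK1, was at -0.39 (SE 0.28). Map3k14, the kinase that starts the non-canonical arm, had 12.3 CPM in IMQ, 14.1 and 14.6 in IMQ+VEH and 12.5 in IMQ+IDMF. None of these passed the test.

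Of 15 adaptor genes, Irak2, which carries sustained signals from IL-1 and Toll-like receptors, was lowest in IMQ+IDMF, with 1258 counts in IMQ, 1069 and 758 in IMQ+VEH and 607 in IMQ+IDMF, a log2 fold change of -0.47 (SE 0.28) against IMQ+VEH. Traf6, a ubiquitin ligase of the same pathways, had 118.7, 76.5, 87.6 and 77.6 CPM, -0.53 (SE 0.26) for IMQ+VEH against IMQ. Traf5 had 58, 138, 101 and 94 counts, 1.11 (SE 0.57) in that comparison. Malt1, a protease of the CARD-BCL10-MALT1 complex, had 38.8, 29.4, 28.8 and 34.6 CPM. The adjusted p in edgeR was 0.610 for Traf6 and 0.648 for Traf5, so neither difference passed.

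Of 11 receptor genes, Tlr7, the receptor that imiquimod binds, had its lowest value in IMQ+IDMF, with 86 counts in IMQ, 240 and 104 in IMQ+VEH and 50 in IMQ+IDMF. Its log2 fold change against IMQ+VEH was -1.61 (SE 0.59, adjusted p = 1 in edgeR). Tnfrsf1b, a TNF receptor of immune and endothelial cells, had 294, 740, 278 and 245 counts, -0.87 (SE 0.43). In both genes IMQ+VEH replicate 1 was the highest library, as it was for the sum of the macrophage and dendritic cell markers. It was also highest for the T and NK cell, B cell, fibroblast and endothelial marker sums. IMQ+IDMF lay under each IMQ+VEH library for 11 of 12 macrophage and dendritic cell markers, where 27.5% of all genes did. The same held for 8 of 10 fibroblast, 7 of 11 T and NK cell and 6 of 8 tested neutrophil markers. It held for 1 of 10 keratinocyte, 0 of 10 endothelial and 0 of 4 tested B cell markers. The part of any of these cells in Tlr7 and Tnfrsf1b was not tested. The IL-36 receptor gene Il1rl2 had 52.2, 45.8, 40.1 and 51.0 CPM. Il1rap, the partner chain of the IL-1 and IL-36 receptors, had 55.2, 48.7, 52.5 and 61.2 CPM.

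The last list held 17 other brakes. Itch, a ubiquitin ligase that works with A20, was lowest in IMQ+IDMF, with 2516 counts in IMQ, 2104 and 1476 in IMQ+VEH and 1450 in IMQ+IDMF, and Tnip2, an A20-binding protein, had 462, 560, 405 and 401. Socs3, a brake on STAT3 signalling that IL-6 family cytokines induce, had 1893, 1331, 741 and 887 counts and the lowest unadjusted p of the 56 genes for IMQ+VEH against IMQ, at a log2 fold change of -0.83 (SE 0.27, adjusted p = 0.310 in edgeR). Irak3, an inhibitory relative of the IRAK kinases, had 862, 1271, 1005 and 1150 counts, 0.47 (SE 0.27).

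**Figure D3:**
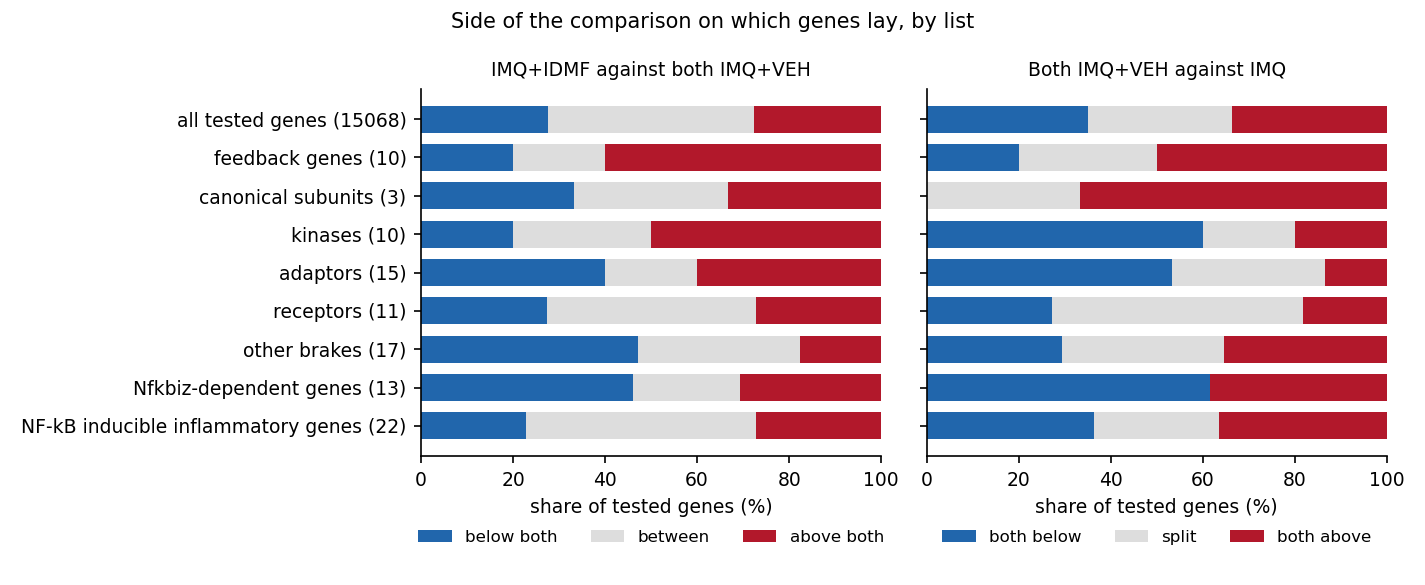
Share of the tested genes of each list (number in brackets) that lay on one side of the comparison libraries, for IMQ+IDMF against both IMQ+VEH libraries on the left and both IMQ+VEH libraries against IMQ on the right. Of the 10 feedback genes, 6 lay above both IMQ+VEH libraries on the left, where 27.7% of all tested genes did. Of the 13 Nfkbiz-dependent genes, 8 lay below IMQ in both IMQ+VEH libraries on the right and 5 above.

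Genes that depend on Nfkbiz in epithelium or myeloid cells were taken as a list of 15, of which 13 were tested. The list was chosen with earlier results of these data known, so its counts beside the shares of all genes are not a test of it. In IMQ+VEH against IMQ 4 of the 13 fell and none rose in edgeR, against 0.664% of all genes called in either direction, while DESeq2 and edgeR with no filter each called 4 lower and 1, Ccl20, higher. Both IMQ+VEH libraries lay below IMQ for 8 of the 13 (35.0% of all genes did) and above it for 5 (33.6%), with a median log2 difference of -1.35. The members that fell encode antimicrobial peptides, an S100 protein and a neutrophil chemokine. Defb3, a beta-defensin, had 5227 counts in IMQ, 1106 and 425 in IMQ+VEH and 370 in IMQ+IDMF, a log2 fold change of -2.77 (SE 0.33, adjusted p = 0.00268 in edgeR). Defb4, another beta-defensin, had 475, 109, 56 and 22 counts, -2.49 (SE 0.45, adjusted p = 0.0255). S100a7a, the mouse psoriasin gene, had 460, 21, 36 and 16 counts, -3.88 (SE 0.56, adjusted p = 0.00695). Cxcl2, a chemokine that draws neutrophils, had 87 counts in IMQ, none in either IMQ+VEH library and 6 in IMQ+IDMF, which is at least 23.4-fold lower in IMQ+VEH when each library at 0 is set to its floor of 3 counts (adjusted p = 0.0189). With total counts as library sizes only 2 of these genes remained past the threshold, Cxcl2 (adjusted p = 0.0504) and Defb4 (adjusted p = 0.0983) being lost. All these calls rest on the single IMQ library. Beta-defensin genes are a family, and the rule for reads that fit several of them is not stated.

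The other members of that list did not pass in edgeR. S100a8 and S100a9, the calprotectin subunits of keratinocytes and neutrophils, had 91242 and 127988 counts in IMQ, 50533 and 74707 in IMQ+VEH replicate 1, 18079 and 25269 in replicate 2 and 16828 and 20828 in IMQ+IDMF, and DESeq2 called S100a8 lower in IMQ+VEH than in IMQ (adjusted p = 0.0396) but not S100a9 (adjusted p = 0.0662). Ccl20, the chemokine that draws IL-17-producing T cells, went the other way, with 156 counts in IMQ, 432 and 689 in IMQ+VEH and 678 in IMQ+IDMF, a log2 fold change of 1.99 (SE 0.46, adjusted p = 0.0995 in edgeR, 0.0115 in DESeq2 and 2.4e-05 in edgeR with no filter). Lcn2, which encodes the iron-binding protein lipocalin 2, had 50.6, 79.7, 56.5 and 47.4 CPM. The list thus did not move one way. The nearly level Nfkbiz transcript stood beside genes that were lower and genes that were higher in both IMQ+VEH libraries than in IMQ. Between IMQ+IDMF and IMQ+VEH no member was called, and the median difference was -0.24. In this comparison 4 lay above both IMQ+VEH libraries (27.7% of all genes did) and 6 below (27.5%).

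The cytokines that act through Nfkbiz were themselves uneven. Il17a had 36 counts in IMQ, 70 and 8 in IMQ+VEH and 12 in IMQ+IDMF, and Il17f had 38, 106, 8 and 22. The IMQ+VEH pair spanned the other libraries for both genes, with log2 fold changes of -1.44 (SE 1.12) and -1.10 (SE 1.09) for IMQ+IDMF against IMQ+VEH. The IL-36 genes were far more abundant: Il1f9, the files' symbol for Il36g, had 11057 counts in IMQ, 6803 and 7195 in IMQ+VEH and 5527 in IMQ+IDMF, and Il1f6, that for Il36a, had 9511, 6257, 5778 and 4435. Both were highest in IMQ, and neither passed the test. Nfkbiz stayed between 96.7 and 100.9 CPM across libraries in which Il17a differed from 8 to 70 counts.

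The sum of the neutrophil markers was highest in IMQ, as were the Nfkbiz-dependent genes that fell. It was 8720 CPM in IMQ, 4529 and 2195 in IMQ+VEH and 1753 in IMQ+IDMF. Both IMQ+VEH libraries were below IMQ for 5 of the 8 tested markers (35.0% of all genes) and above it for none (33.6%). S100a8 and S100a9, which are in both lists, made up 8637, 4464, 2114 and 1684 CPM of it in the same order of libraries. The other 7 markers summed to 82.7, 65.6, 81.3 and 69.8 CPM, and Retnlg was at 0 in IMQ+IDMF. Both IMQ+VEH libraries were below IMQ for 3 of their 6 tested genes, beside 35.0% of all genes. The keratinocyte marker sum was also highest in IMQ, at 64653 CPM, with 48409 and 60748 in IMQ+VEH and 55253 in IMQ+IDMF. The part of either cell type in the lower values was not tested.

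**Figure D4:**
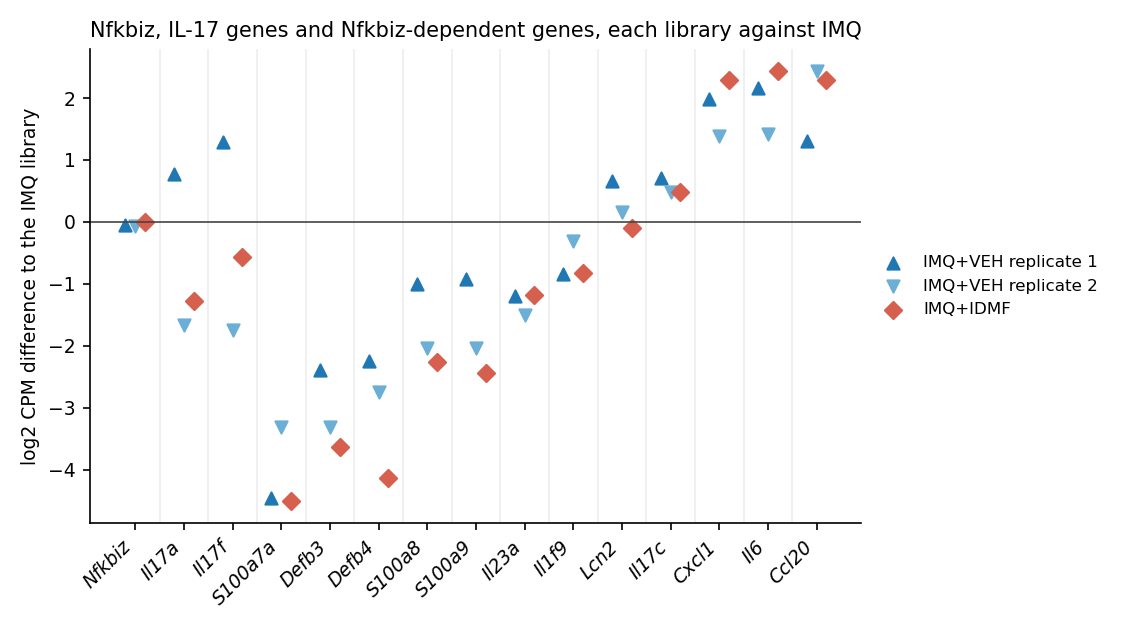
Difference in log2 CPM of each lotion-treated library from the IMQ library (line at 0), for Nfkbiz, Il17a, Il17f and 12 of the 13 tested Nfkbiz-dependent genes. Cxcl2 is not drawn because both IMQ+VEH libraries had no counts. Nfkbiz lies on the line in all 3 libraries, S100a7a, Defb3 and Defb4 lie 2.24 to 4.51 below it, and Ccl20 lies 1.31 to 2.44 above it.

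Of 22 NF-kB inducible inflammatory genes, some of them also in the Nfkbiz-dependent list, 2 fell in IMQ+VEH against IMQ and none rose in edgeR, where 0.664% of all genes were called: Cxcl2, already given, and Saa3, an acute-phase serum amyloid, with 1594 counts in IMQ, 390 and 218 in IMQ+VEH and 228 in IMQ+IDMF (log2 fold change -2.35, SE 0.30, adjusted p = 0.00328 in edgeR). Both IMQ+VEH libraries lay above IMQ for 8 of the 22 (33.6% of all genes did) and below it for 8 (35.0%). This list too was chosen with earlier results of these data known. Il1b had 245, 28, 46 and 66 counts and did not pass (adjusted p = 0.0919). Cxcl1, which shares its receptor with Cxcl2, had 18, 86, 41 and 85 counts, the opposite order of IMQ and IMQ+VEH. Between IMQ+IDMF and IMQ+VEH none of the 22 was called, 6 lay above both IMQ+VEH libraries (27.7% of all genes did) and 5 below (27.5%). Cxcl10, an interferon-induced chemokine chosen after its values were seen, was among those above, with 18 counts in IMQ, 21 and 24 in IMQ+VEH and 68 in IMQ+IDMF. Vcam1, an endothelial adhesion protein, had 56, 150, 83 and 54 counts, and Ccl2, a monocyte chemokine, had 50, 89, 74 and 52, both lower in IMQ+IDMF than in either IMQ+VEH library.

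Transcripts known to be cut by the Zc3h12a product were a list of 13 genes, of which 12 were tested. This list too was chosen with earlier results of these data known. In IMQ+VEH against IMQ 1 of the 12 fell, Cxcl2, and none rose in edgeR, where 0.664% of all genes were called. In IMQ+IDMF 5 of the 12 lay above both IMQ+VEH libraries (27.7% of all genes did) and 3 below (27.5%), and none was called. Ptgs2, the inducible cyclooxygenase, had 91 counts in IMQ, 28 and 44 in IMQ+VEH and 44 in IMQ+IDMF, and Ier3, an immediate early gene, had 2123, 1712, 1484 and 1681. This list, the inflammatory list and the Nfkbiz-dependent list share several genes, Cxcl2 among them, so their counts are not separate evidence.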

How the data were processed

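RNA from 4 back skin samples was read in single-end runs of 50 cycles, per the labels' protocols. For each library the authors deposited a raw count and an FPKM value per gene symbol (fragments scaled to transcript length and library size), per the file headers. TopHat2, Cufflinks, HTSeq, GRCm38 and mm10 stand in the submitters' processing notes with no role or version. Annotation, strand setting and the treatment of multi-mapping reads are not stated. Samples were grouped by their titles.

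Counts were fitted over all genes with edgeR 4.0.16 in R 4.3.3 (filterByExpr by group, TMM, 1 mean per group, two-sided quasi-likelihood F test), with Benjamini-Hochberg adjustment over 15068 genes and a threshold of 0.05. With IMQ+VEH as the replicated group, 1 residual degree of freedom was left, with 11.2 prior degrees of freedom and a common biological coefficient of variation of 24%. SE was obtained as log2 fold change over the root of F, and log2 CPM has a prior count of 2. For IMQ+IDMF against IMQ, single libraries both, sizes only are given.

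The members and the lists were chosen with earlier results of these data known. The members, Rela, Rel, Nfkb1, Il17a, Il17f, Il36g and Il36a were named whatever their values. Other genes were named if past the threshold, or if among the 3 per list (mean log2 CPM of at least 1) for which IMQ+IDMF lay farthest outside both IMQ+VEH libraries or both IMQ+VEH libraries farthest to one side of IMQ. Birc2 also came under this rule, as did Lcn2 in the Zc3h12a list and Bcl2a1b, which is not described above. S100a8, Ccl20, Cxcl10 and Rnf11, and Lcn2 in the Nfkbiz-dependent list, were chosen after their values were seen. Cell types were checked with 7 marker lists. B cell markers summed to 2.83 to 7.13 CPM and endothelial markers to 154 to 333 CPM. Positions and shared stretches of 50 bases came from GENCODE M21 (GRCm38), and promoters from RefSeq (GRCm38.p6).

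Alternatives were DESeq2 1.42.0, other library sizes in edgeR (DESeq2 size factors, total counts), other filters (none, mean count of at least 50), a group that pools IMQ with IMQ+VEH, fits without the IMQ library or an IMQ+VEH replicate, and log2 of the deposited FPKM plus 0.1.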

Additional observations from a re-analysis of the deposited data

How the results depend on the processing

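No member was called in either comparison under any setting that gives a test, and the smallest adjusted p were 0.9998 for IMQ+IDMF against IMQ+VEH and 0.493 for IMQ+VEH against IMQ. Directions held in 98 of 100 values (10 settings) and 75 of 80 (8 settings). Leaving out 1 IMQ+VEH replicate in turn leaves no residual degrees of freedom, so those are values with no test: for IMQ+IDMF against IMQ+VEH they were -0.037 and 0.50 for Nfkbib and -0.80 and 0.021 for Nfkbie, and for IMQ+VEH against IMQ -0.20 and 0.34 for Nfkbib, -0.020 and 0.80 for Nfkbie and -0.36 and 0.14 for Birc3. These signs rest on which IMQ+VEH library is kept. Nfkbiz, at -0.06 for IMQ+VEH against IMQ, turned to 0.013 with total counts and 0.047 with the deposited FPKM values; the cause was not tested. With total counts 2 Nfkbiz-dependent genes were called in place of 4; the cause was not tested. DESeq2 size factors in edgeR kept the same 4. A mean count of at least 50 leaves Cxcl2 out and calls 3. No filter calls these 4 and Ccl20, which is higher in IMQ+VEH. DESeq2 calls Defb3, Defb4, S100a7a and S100a8 lower and Ccl20 higher, with no adjusted p for Cxcl2. With DESeq2 size factors 5 members, not 6, lay above both IMQ+VEH libraries in IMQ+IDMF. No paired analysis was possible because IMQ and IMQ+IDMF have 1 library each. Counts were low for Nfkbie and lower still for Il17a, Il17f and Cxcl2, and the spread between animals is known from 1 pair only.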
